A study of Mus musculus with 6 samples.

Results

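YAP and TAZ, encoded by Yap1 and Wwtr1, are the coactivators at the end of the Hippo pathway, and the TEAD factors are the DNA-binding proteins through which they act. The 8 genes Yap1, Wwtr1, Tead1, Tead2, Tead3, Tead4, Vgll3 and Vgll4 were taken by symbol from the 19505 genes that the array's annotation names, and each was represented by 1 probe set. RNA of whole adrenal glands from 2-month-old female mice was measured on Affymetrix whole-transcript arrays, 1 animal per array. Mutant animals (n = 3) had the genotype Mst1flox/flox;Mst2flox/flox;Nr5a1-cre, and control animals (n = 3) had Mst1flox/flox;Mst2flox/flox. Both groups therefore carried the floxed alleles, and only the mutants carried the Cre transgene. Nr5a1-Cre is active in steroid-producing cells, whereas capsule, vessels and medulla are also part of a whole gland.

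The kinases MST1 and MST2 activate LATS1 and LATS2, which phosphorylate YAP and TAZ and so keep them in the cytoplasm or mark them for breakdown. This control acts on the proteins, whereas the array reads RNA. In the nucleus YAP and TAZ have no DNA-binding domain of their own and bind TEAD1 to TEAD4, which recognise a short element with the core CATTCC. VGLL proteins bind an overlapping surface of TEAD. VGLL4 competes with YAP for TEAD, and VGLL3 is a TEAD cofactor best known from muscle and connective tissue cells.

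The TEAD core was searched in the promoters of the 8 genes to see where the factors' own genes hold the letters that TEAD proteins recognise. RefSeq promoter windows of build GRCm38.p6 reach from 250 bases before to 50 bases after a gene's start, and 6 of the 8 genes matched, through 9 windows. Tead1 and Tead4 had no window there, so their promoters were not searched. The letters searched were GGAATG and, as the other strand, CATTCC, which do not overlap any other motif searched. Of the 6 matched genes, 5 held the letters in at least 1 window (Yap1, Wwtr1, Tead3, Vgll3 and Vgll4), and Tead2 did not. Over all 32851 promoter windows the share with at least 1 match was 14.7%, and over the 27025 genes with a window it was 16.6%. A match describes the sequence and says nothing of whether a factor binds there.

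The matches of Yap1, Wwtr1 and Vgll4 are shown with 12 bases on each side, read 5′ to 3′ on the gene's strand, the core in capitals. They begin 141, 136 and 82 bases before the start, and all 3 genes lie on the minus strand, at chr9:8004720-8004749, chr3:57576029-57576058 and chr6:114969268-114969297.
Yap1: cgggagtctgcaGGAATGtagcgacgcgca
Wwtr1: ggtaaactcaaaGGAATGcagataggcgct
Vgll4: cgagtggggtggGGAATGctgagaaatgcc

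Vgll3 and Tead3 are shown with the 250 bases before the start, because in both the 3 mutants lay above the 3 controls at signals above background (given further on). The Vgll3 stretch is chr16:65814939-65815188 on the plus strand, with the core 63 bases before the start. The Tead3 stretch is chr17:28350806-28351055 on the minus strand, with the core 182 bases before the start.
Vgll3: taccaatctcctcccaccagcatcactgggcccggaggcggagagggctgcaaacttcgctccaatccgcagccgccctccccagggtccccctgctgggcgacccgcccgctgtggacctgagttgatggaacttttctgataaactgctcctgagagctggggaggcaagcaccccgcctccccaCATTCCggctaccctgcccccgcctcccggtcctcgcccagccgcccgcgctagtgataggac
Tead3: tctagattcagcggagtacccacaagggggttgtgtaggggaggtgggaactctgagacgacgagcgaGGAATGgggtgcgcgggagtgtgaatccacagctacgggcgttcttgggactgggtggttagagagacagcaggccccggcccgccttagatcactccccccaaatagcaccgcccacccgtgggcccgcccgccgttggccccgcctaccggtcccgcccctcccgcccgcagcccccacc

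Tead3 has 3 annotated starts with windows. The window of the second start held 3 matches, a number reached by 0.131% of all windows, and that of the third start held 0. A run of 30 bases at chr17:28350702-28350731, minus strand, holds 2 of them, which begin 123 and 114 bases before that start.
Tead3, second start: gccgggctCATTCCgtaCATTCCggccatc

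The values are the log2 signals the authors deposited, so that 1 unit is a 2-fold step, and 22206 probe sets entered the comparison after control probe sets were left out. Median signals of the arrays lay between 6.76 and 6.83. The 23 background probe sets ranged from 2.53 to 7.32, and by this range a signal inside it cannot be separated from background. The range is wide, as 7.32 is the highest single value. The background means per array were 4.99 to 5.13, and the median signal of all tested probe sets was 6.79. The intron control probe sets, a sign of RNA quality, averaged 5.73, 5.45 and 5.71 in the mutants and 5.47, 5.40 and 5.84 in the controls. The exon control probe sets averaged 10.61, 10.78 and 10.73 in the mutants and 10.79, 10.78 and 10.78 in the controls. Mutant 1 was thus the lowest of the 6 arrays in exon mean, and a link to the values of the 8 genes was not tested. The cortex markers fixed for this tissue, such as Star and Cyp11b1, were all above background. Their means over 8 genes were 18.14 to 18.29 in mutants and 18.24 to 18.30 in controls, with 2 genes higher and 6 lower in mutants. Of the targeted kinases, Stk4 (encoding MST1) had signals of 8.14, 8.36 and 8.46 in the mutants and 8.32, 8.66 and 8.94 in the controls, so the groups overlapped (log2 change -0.32, SE 0.19, limma adjusted p = 0.623). Stk3 (MST2) was not analysed here. It is not stated whether the Stk4 probe set covers the deleted exons, so this value checks no genotype label.

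None of the 8 genes passed the test in mutant against control glands. At an adjusted p of 0.05 with limma over all probe sets 0 of 8 were called, beside 0.0721% of all probe sets, and at an unadjusted p under 0.05 there were 3 of 8 (Tead3, Vgll3 and Vgll4, all higher), beside 10.4% of all probe sets. The groups did not overlap in 4 of 8 genes, Tead3, Tead4, Vgll3 and Vgll4, beside 16.4% of all probe sets. In all 4 the 3 mutants lay above the 3 controls, whereas over all probe sets the separations ran about equally both ways (1776 higher and 1856 lower in mutants). The 8 genes had a median log2 change of 0.26, and 6 were higher and 2 lower, whereas over all probe sets the median was -0.01 and 48.0% were higher. Of these genes Tead2, Tead4 and Vgll4 lay within the background range in all animals. Among the other 5 genes 3 were higher and 2 lower (median log2 change 0.23), and the groups did not overlap in 2 of 5, Tead3 and Vgll3. With fewer cells of a type or less RNA per cell, a whole gland gives the same lower signal, and these cannot be told apart.

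**Figure D1:**
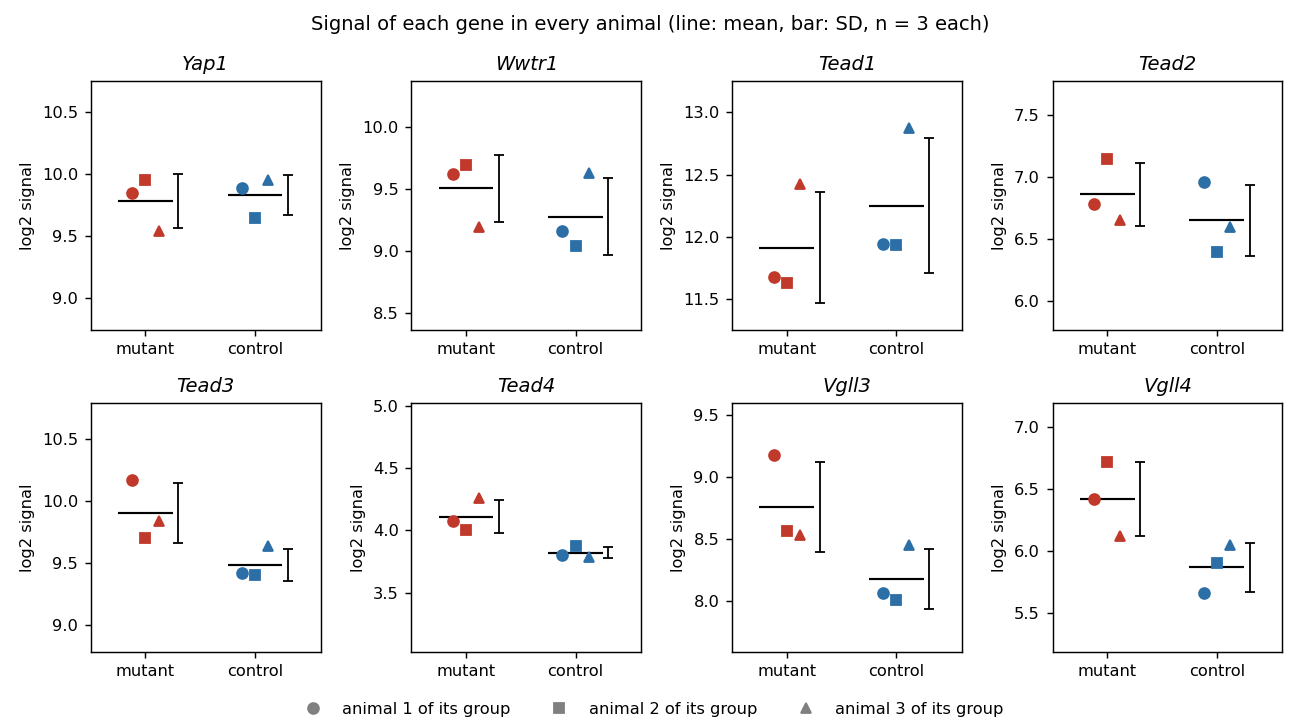
Log2 signal of the 8 genes in each mutant (red) and each control (blue) animal, with group means as lines and SDs as bars; every panel spans 2 log2 units, and marker shapes name the animal within its own group and do not pair animals. Mutants lie above all controls for Tead3, Tead4, Vgll3 and Vgll4, and the groups overlap for Yap1, Wwtr1, Tead1 and Tead2.

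Of the coactivators, Yap1 had signals of 9.85, 9.96 and 9.54 in the mutants and 9.89, 9.65 and 9.95 in the controls. The groups lay across each other, with the highest and the lowest animal both among the mutants. The log2 change of -0.05 (SE 0.17, limma adjusted p = 0.954) had a 95% interval of -0.44 to 0.34, that is, a fold of 0.738 to 1.27 between mutant and control. Changes larger than that of Yap1 were seen in 84.3% of all probe sets.

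Wwtr1, the gene of TAZ, had signals of 9.62, 9.70 and 9.20 in the mutants and 9.16, 9.04 and 9.63 in the controls. Mutants 1 and 2 and control 3 were high, mutant 3 and controls 1 and 2 were low, so the groups overlapped. The means were 9.51 ± 0.27 in mutants and 9.28 ± 0.31 in controls (SD, n = 3 each), and the log2 change was 0.23 (SE 0.21, 95% interval -0.26 to 0.71, limma adjusted p = 0.770). The change was 0.11 without control 2, 0.13 without mutant 2, 0.38 without mutant 3 and 0.40 without control 3.

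Whether the coactivators changed by unequal amounts was tested on the difference Yap1 minus Wwtr1 within each animal. It was 0.22, 0.26 and 0.35 log2 units in the mutants and 0.72, 0.61 and 0.32 in the controls. Only mutant 3 and control 3 crossed. The group difference of -0.27 had an exact two-sided permutation p of 0.2, where 3 animals against 3 cannot go below 0.1, and an adjusted p of 0.8 over the 8 pairs of paralogs compared.

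Among the DNA-binding partners, Tead1 had the brightest probe set, with signals of 11.68, 11.63 and 12.43 in the mutants and 11.95, 11.93 and 12.87 in the controls. Mutant 3 and control 3 each stood well above the others of their group, and mutants 1 and 2 were below every control. The log2 change was -0.34 with the widest interval of the 8 genes (SE 0.31, 95% interval -1.05 to 0.37, limma adjusted p = 0.769). Without control 3 the change was -0.03, and without mutant 3 it was -0.60, with no call in either case.

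Tead2, the family member best known from early embryos, had signals of 6.78, 7.15 and 6.65 in the mutants and 6.96, 6.40 and 6.60 in the controls. All these values lay within the background range, and the groups overlapped (log2 change 0.21, SE 0.20, limma adjusted p = 0.781). The change was 0.07 without mutant 2, 0.08 without control 2 and 0.36 without control 1.

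Tead3, best known from the human placenta, had signals of 10.17, 9.70 and 9.84 in the mutants and 9.42, 9.40 and 9.63 in the controls. Each mutant was above each control, by a gap of 0.07 between mutant 2 and control 3. The means were 9.90 ± 0.24 in mutants and 9.48 ± 0.13 in controls (SD, n = 3 each), 1.34-fold apart. The log2 change was 0.42 (SE 0.17, 95% interval 0.02 to 0.81). The unadjusted p was 0.0402 in limma, and the change did not pass after adjustment (adjusted p = 0.455). With 1 animal left out the change was smallest without mutant 1 (0.28) and largest without mutant 2 (0.52). After quantile normalization it was 0.40 (SE 0.18) and no longer met the unadjusted threshold of 0.05. After a shift to a common median it was 0.39 (SE 0.17) and narrowly met that threshold.

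Tead4, known from the first lineage choice of the embryo and from muscle, was dim. Its signals were 4.07, 4.0 and 4.26 in the mutants and 3.80, 3.87 and 3.78 in the controls. The mutants were again above the controls, by a gap of 0.13, but every value lay within the background range, so the log2 change of 0.29 (SE 0.14, limma adjusted p = 0.537) compares signals that may hold background alone.

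Of the 6 pairs of TEAD genes, 5 hold Tead2 or Tead4, whose signals may be background alone, so their differences are not described. The pair above background was Tead1 minus Tead3, at 1.51, 1.93 and 2.59 log2 units in the mutants and 2.53, 2.53 and 3.24 in the controls. Mutant 3 lay within the range of the controls, and the group difference of -0.76 had an exact two-sided permutation p of 0.3, where the smallest possible is 0.1 (adjusted p = 0.8 over the 8 pairs). A test of this size could not have passed 0.05, so it says little on whether the pair changed unequally.

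Of the VGLL cofactors, Vgll3 had signals of 9.17, 8.57 and 8.53 in the mutants and 8.07, 8.01 and 8.45 in the controls. Mutant 1 was the highest of all 6 animals, and mutants 2 and 3 lay closely above control 3, with a gap of 0.08. Its log2 change was 0.58 (SE 0.22, 95% interval 0.08 to 1.08, 1.497-fold), and without mutant 1 it was 0.37. The unadjusted p was 0.0278 in limma, and the change did not pass after adjustment (adjusted p = 0.410). Larger changes were seen in 5.48% of all probe sets.

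Vgll4 had signals of 6.41, 6.72 and 6.12 in the mutants and 5.66, 5.90 and 6.05 in the controls. The groups did not overlap, with a gap of 0.07 between mutant 3 and control 3, and all values lay within the background range. The log2 change was 0.55 (SE 0.19, 95% interval 0.10 to 0.996, unadjusted p = 0.0217), which did not pass after adjustment in limma (adjusted p = 0.388). Since Vgll4 may be background alone, its difference from Vgll3 within animals is not described.

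**Figure D2:**
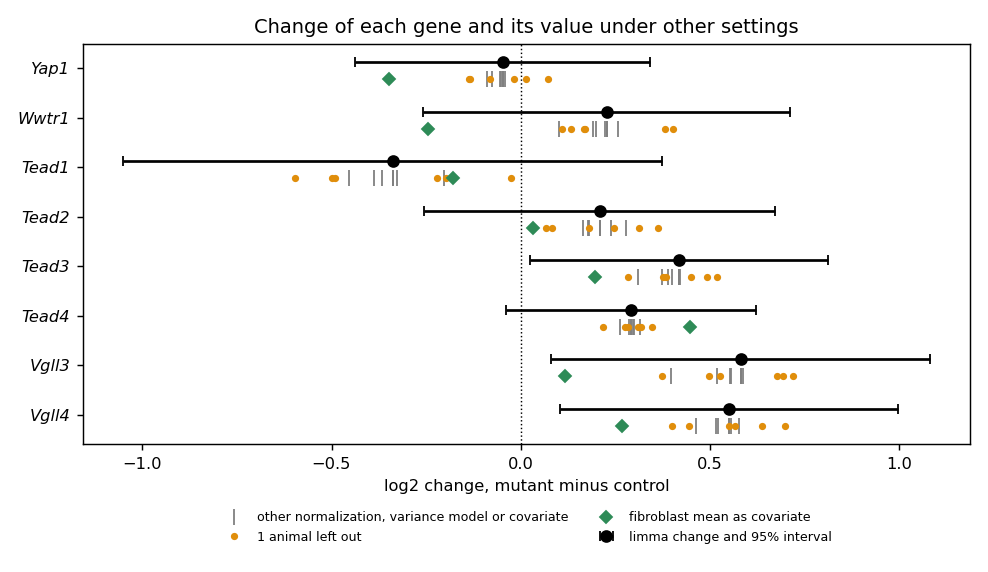
Log2 change of mutant minus control for each gene, with the limma value and its 95% interval in black and the values under other settings below it. Values with the fibroblast marker mean as a covariate (green) lie at 0.12 for Vgll3 and 0.20 for Tead3, below their values of 0.58 and 0.42, and at 0.45 for Tead4, above its value of 0.29.

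In control glands the 8 probe sets spread over most of the array's range. Tead1 had the highest control signal (12.25 ± 0.54, SD, n = 3), above 89.0% of all probe sets, followed by Yap1 (9.83 ± 0.16), Tead3 (9.48 ± 0.13), Wwtr1 (9.28 ± 0.31) and Vgll3 (8.18 ± 0.24). Tead2 (6.65 ± 0.28), Vgll4 (5.87 ± 0.20) and Tead4 (3.82 ± 0.05) lay within the background range, and Tead4 was above only 8.51% of all probe sets. Of the neighbours in this order, Tead3 and Wwtr1 overlapped and differed by less than the spread of Wwtr1, whereas the control animals of all other neighbours did not overlap, narrowly so for Yap1 (lowest 9.65) and Tead3 (highest 9.63). Among the TEAD genes the order was Tead1, Tead3, Tead2 and Tead4 in each of the 6 animals. Probe sets differ in how strongly they bind their target, so this is an order of signals and not of transcript numbers.

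**Figure D3:**
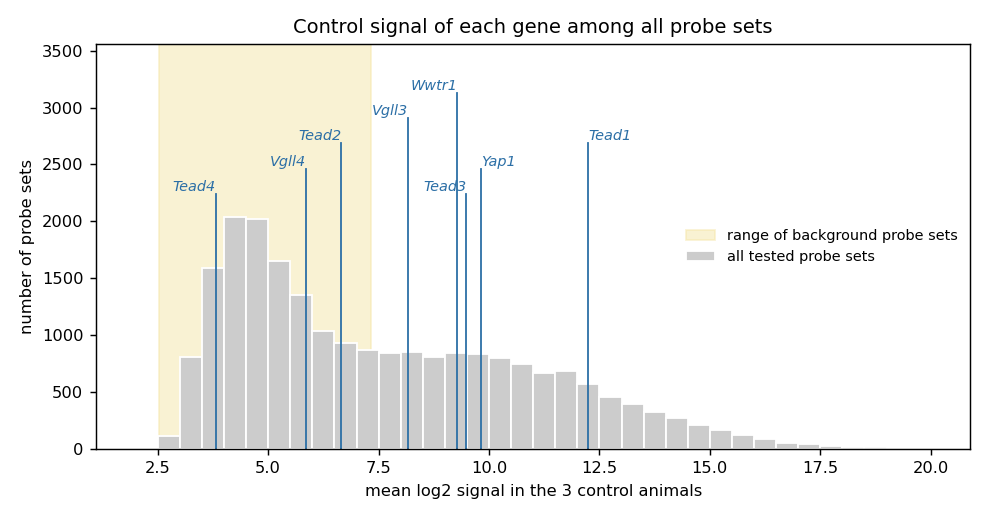
Distribution of the mean log2 signal of all 22206 tested probe sets in the 3 control animals (grey bars), with the 8 genes as blue lines, and background probe sets spanning the shaded band from 2.53 to 7.32. Tead1, Yap1, Tead3, Wwtr1 and Vgll3 lie above the shaded range, and Tead2, Vgll4 and Tead4 within it.

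Control 3 was the highest control for 6 of the 8 genes, Yap1, Wwtr1, Tead1, Tead3, Vgll3 and Vgll4, and it also had the highest intron control mean of the 6 arrays (5.84). No share over all probe sets stands beside this count, and its link to the intron mean was not tested. With the intron mean as a covariate the log2 changes of Tead3, Vgll3 and Vgll4 were 0.37, 0.52 and 0.55, and that of Tead1 was -0.45. Markers of cells outside the cortex were also unequal between the groups. The 7 measured fibroblast markers were all higher in mutants (7 of 7, such as Col1a2 and Fn1), with list means of 11.76, 11.44 and 10.75 in mutants and 10.51, 10.26 and 10.84 in controls. None of them was within the background range. The endothelial list mean was 12.75 to 12.78 in mutants and 12.20 to 12.42 in controls, with 6 of 6 genes higher, and the smooth muscle and pericyte mean was 10.13 to 10.42 in mutants and 9.64 to 9.97 in controls, with 5 of 7 higher. Myh11 and Cnn1 of the smooth muscle list lay within the background range. Of these 20 markers, none passed the limma test after adjustment.

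With the fibroblast mean as a covariate, the log2 change was 0.12 for Vgll3, 0.20 for Tead3 and 0.27 for Vgll4. These had SEs of 0.26, 0.25 and 0.28, wider than the 0.22, 0.17 and 0.19 without the covariate. Each change was under its value without the covariate by more than 1.5 times. The change with this covariate was 0.03 for Tead2 and -0.18 for Tead1, also closer to 0 by more than 1.5 times. It was 0.45 for Tead4, -0.25 for Wwtr1, a turn of its sign, and -0.35 for Yap1, and none of the 8 passed. The adipocyte list, which varied widely (12.20, 9.85 and 9.20 in mutants, 7.82, 9.49 and 10.81 in controls), gave changes of 0.40 for Vgll3, 0.31 for Tead3 and 0.10 for Wwtr1 as a covariate. The macrophage list mean was 9.02 to 9.63 in mutants and 9.08 to 9.17 in controls, with Adgre1 within the background range. The medulla mean was 14.20, 14.09 and 14.23 in mutants and 14.40, 15.16 and 14.03 in controls, so the groups overlapped. All 6 of its genes had a lower mean in mutants (median log2 change -0.33), and 0 passed the limma test. Control 2 was the highest animal in each of the 6, whereas the list mean of control 3 was below that of every mutant. Kidney markers averaged 5.0 to 5.12 in mutants and 5.03 to 5.12 in controls, and 5 of 6 were within the background range. The part of cell composition in the values of the 8 genes was not tested.

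**Figure D4:**
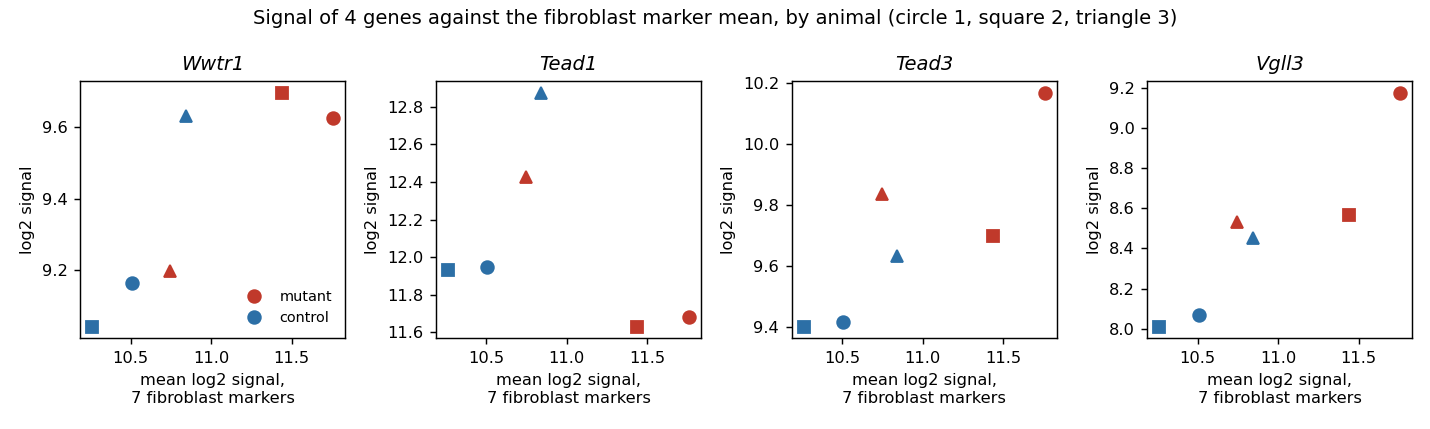
Log2 signal of Wwtr1, Tead1, Tead3 and Vgll3 against the mean log2 signal of 7 fibroblast markers, for each mutant (red) and control (blue) animal; circle, square and triangle stand for animals 1, 2 and 3 of a group. Mutant 1 is highest in fibroblast mean (11.76), in Vgll3 (9.17) and in Tead3 (10.17), and Tead1 is lowest in mutants 1 and 2, where the fibroblast mean was 11.76 and 11.44.

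The readout of the factors was described with 22 genes often used as YAP/TAZ targets, all of them measured. Tgfb2, a ligand of the TGF-beta family, rose 2.70-fold past the limma test (log2 change 1.44, SE 0.17, adjusted p = 0.0357), 0 fell and 21 did not pass. Its signals were 9.18, 8.84 and 8.68 in the mutants and 7.53, 7.50 and 7.38 in the controls, with a wide gap between the groups. The change stayed between 1.21 and 1.55 under 15 alternatives, but the call held in only 5 of them. It was lost without any 1 of the 6 animals, with the replicate block and with the intron, adipocyte or fibroblast mean as a covariate, where limma adjusted p lay between 0.0578 and 0.627 (the highest with the fibroblast mean). Of the 22 genes 17 were higher, with a median log2 change of 0.55 beside -0.01 over all probe sets, and in 11 of 22 the groups did not overlap, all with the mutants higher, beside 16.4% of all probe sets. The 1 call among the 22 genes stands beside 0.0721% of all probe sets. Neither the list nor these counts are independent of earlier results of these data.

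The 3 genes next in p were Crim1, which binds bone morphogenetic proteins (log2 change 0.87, SE 0.15), Myof, a membrane repair protein (1.22, SE 0.21), and Rbms3, an RNA-binding protein (0.79, SE 0.17). They had limma adjusted p of 0.0803, 0.0939 and 0.178. Ccn1, a matrix protein gene used widely to read YAP activity, had signals of 10.40, 10.41 and 11.34 in the mutants and 10.35, 10.04 and 10.10 in the controls. The mutants were above the controls, but mutant 3 alone stood far off (log2 change 0.55, SE 0.26, limma adjusted p = 0.523). Ccn2, its relative, had signals of 10.71, 10.50 and 11.24 in the mutants and 10.65, 10.56 and 10.67 in the controls, again with mutant 3 highest and the groups overlapping. In the promoter table, 15 of the 22 target genes had a window and 7 of these held the TEAD core, beside 16.6% of all genes. They were Amotl2, Lats2, Ccn1, Ankrd1, Axl, Crim1 and Ptpn14, whereas Tgfb2, Myof and Rbms3 did not hold it in their windows.

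**Figure D5:**
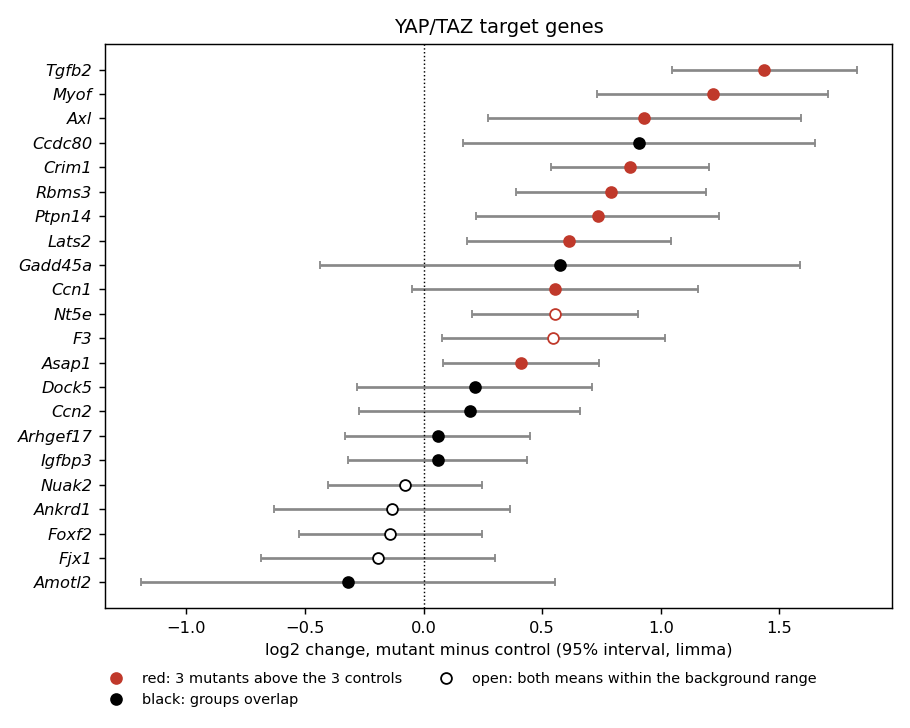
Log2 change of mutant minus control with 95% intervals (limma) for 22 YAP/TAZ target genes; red points mark genes whose 3 mutants lie above the 3 controls, and open points mark genes at background in both groups. 17 genes lie right of 0, and the 5 left of it are Amotl2 and 4 dim genes.

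Upstream of the coactivators, 22 of 23 genes for the kinases, their scaffolds and partners were measured. Ajuba, a LIM protein that binds LATS kinases, rose 3.75-fold past the limma test (adjusted p = 0.00878), 0 fell and 21 did not pass. Its log2 change stayed between 1.81 and 1.98 under 15 alternatives, and the call held in 9 of them. It was lost without any 1 of the 3 controls, with the replicate block and with the adipocyte or fibroblast mean as a covariate, where limma adjusted p lay between 0.0615 and 0.414 (the highest with the fibroblast mean). This 1 call among 22 genes stands beside 0.0721% of all probe sets. The median log2 change of the list was 0.15, with 14 of 22 higher. The groups did not overlap in 9 of 22 genes, 8 higher and 1 lower in mutants, beside 16.4% of all probe sets. The next by p were Wwc2, a scaffold that activates LATS (log2 change 0.60, SE 0.17), Fat4, an atypical cadherin (0.75, SE 0.21), and Amotl1, an angiomotin that binds YAP in the cytoplasm (0.73, SE 0.21). Their limma adjusted p lay at 0.276, 0.278 and 0.293.

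Among 14 genes for the retention and breakdown of YAP and TAZ, which include the 14-3-3 proteins that hold phosphorylated YAP and the ubiquitin ligase parts Btrc and Fbxw11, 0 passed the test. Their median log2 change was -0.02, with 6 higher and 8 lower. Ptpn14, a phosphatase that binds YAP and also a target gene, differed by 0.73 log2 units (SE 0.22, limma adjusted p = 0.316). The 14-3-3 genes Ywhag and Ywhab had log2 changes of -0.31 (SE 0.15) and -0.20 (SE 0.14), with every mutant below every control, and limma adjusted p of 0.529 and 0.683. In the other 14-3-3 genes the groups overlapped. Log2 changes were -0.04 for Ywhah, -0.02 for Ywhae, -0.02 for Ywhaz, 0.003 for Ywhaq and 0.10 for Sfn, which lay within the background range. The casein kinase gene Csnk1e, whose product helps to mark YAP and TAZ for breakdown, had a log2 change of 0.26 (SE 0.14), with every mutant above every control. In this list the groups did not overlap in 4 of 14 genes, 2 higher and 2 lower in mutants, beside 16.4% of all probe sets.

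Of 11 further measured nuclear partners of YAP, TAZ or TEAD, 0 passed, and the median log2 change was 0.02 with 6 higher and 5 lower. Runx1, a transcription factor that binds YAP, had signals of 7.40, 6.90 and 6.71 in the mutants and 6.42, 6.31 and 6.32 in the controls. Each mutant was above each control, but all but mutant 1 lay within the background range (log2 change 0.65, SE 0.20, limma adjusted p = 0.315). Wbp2, which binds the WW domains of YAP and TAZ, had a log2 change of -0.16 (SE 0.13), the TEAD-binding gene Fam181b 0.22 (SE 0.20), and the AP-1 subunit Fosl1 -0.22 (SE 0.23). The other VGLL genes, Vgll1 and Vgll2, were at background in mutants and controls alike, with log2 changes of -0.12 and 0.02.

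For each of the 8 genes the 3 most alike profiles over the 6 animals were listed, likeness being the mean absolute difference of log2 signals after each gene was centred on its own mean. Candidates were genes of above-median signal that varied at least as widely, and among so many some lie close to any profile, so these are descriptions without a test. Closest to Vgll3 was Fzd2, a WNT receptor (0.05 log2 units, of 933 candidates), followed by Vim, the intermediate filament protein of mesenchymal cells (0.08), and Lrif1 (0.08). Closest to Tead1, of 767 candidates, were the angiomotin gene Amotl2 (0.15), Mpp7 (0.16) and Rcn1 (0.16). In Amotl2 mutant 3 (13.19) and control 3 (13.16) stood above the other mutants (11.74 and 12.03) and the other controls (12.40 and 12.35), as they did in Tead1.

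Closest to Vgll4, whose signals lay within the background range, were Rcn3 (0.06), the angiomotin gene Amotl1 (0.10) and Lpar6, a receptor for lysophosphatidic acid (0.10). Closest to Wwtr1 were Ifi209 (0.05), Dok4 (0.07) and Odf2l (0.08), and closest to Yap1 were Fiz1 (0.03), Mavs (0.04) and the hedgehog transducer Smo (0.05). Tead3 was nearest to Trim52 (0.06), Tns3 (0.07), which encodes an adhesion protein, and Ccser2 (0.07). For Tead2 and Tead4, both dim, the lists were Slc9a9, Cfap300 and Rbm4, and Cdr2, Ube2w and Plscr2. Among the 8 genes themselves, Tead3 and Vgll3 were the closest pair (0.12), and Tead1 and Vgll4 the farthest (0.57). These distances are not scaled to a gene's range, and Tead1, whose range was the widest of the 8, had 0.35 to 0.57 to the others.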

How the data were processed

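The authors deposited log2 signals per probe set for 6 arrays, 1 per animal. Per the submitters' processing notes, Transcriptome Analysis Console 4.0 was used. The sources used here do not give how background was corrected, probes summarised and arrays normalized. Had arrays been forced to 1 distribution, a shift common to most genes would not be seen. Groups and replicate numbers come from the sample descriptions in the labels.

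Of 28846 probe sets, 6640 controls (5222 intron, 1324 exon and 94 spike or background probe sets) were left out. The platform's annotation gave 1 symbol to 19572 of the other 22206, several to 0 and none to 2634. All 19572 matched an Entrez identifier of assembly GRCm38.p6, which changed 0 symbols.

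The comparison used limma 3.58.1 in R 4.3.3 (lmFit, then eBayes) on all 6 arrays, with no covariate and no signal filter, two-sided, with Benjamini-Hochberg adjustment over all 22206 probe sets and a threshold of 0.05. SEs and intervals are limma's. The fit was tested on simulated data. It called 39 of 100 probe sets given a log2 change of 1 and 88 of 100 given a change of 2. Of the unchanged probe sets 8 were called. Changes smaller than 1, such as those of the 8 genes, were not simulated. Paralog pairs were compared by exact permutation over animals. Named were the 8 genes, Stk4, Ccn1 and Ccn2, up to 4 genes of smallest p from each of 4 lists (targets, kinases and scaffolds, retention and turnover, nuclear partners), and the 3 genes most like each of the 8. Ankrd1, Lats2, Axl, Btrc, Fbxw11, Vgll1, Vgll2, Col1a2, Fn1 and the cell type markers were named beyond that rule, after their values were seen. The same holds for Ywhah, Ywhae, Ywhaz, Ywhaq and Sfn. Genes, lists and tests were chosen with earlier results of these data known. Pdgfra and Cd68 of the marker lists were not analysed here. The number of animals limits the precision.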

Additional observations from a re-analysis of the deposited data

How the results depend on the processing

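An adjusted p of 0.05 was passed by 0 of the 8 genes under 14 alternatives, and by 0 of the 5 left by the filter on dim probe sets, which drops Tead2, Tead4 and Vgll4. Of the genes called, Tgfb2 kept its call in 5 of 15 alternatives and Ajuba in 9. The mutants of 4 of 8 genes stayed above the controls after quantile normalization and after a shift to a common median. Of the 4 genes, Tead4 and Vgll4 lay within the background range. These are the same data rescaled, so the count is no further evidence. The share of all probe sets without overlap, 16.4% before rescaling, was not counted under these settings. Signs turned for Wwtr1 with the fibroblast mean as a covariate (-0.25) and for Yap1 without control 3 (0.01) or mutant 3 (0.073). The cause was not tested. With 1 animal left out Yap1 ranged from -0.14 to 0.07, and Yap1 minus Wwtr1 within animals from -0.39 to -0.19. Of the 22 target genes, 15 to 18 were higher, the lowest count being among 16 left after the filter on dim probe sets.

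The count of probe sets called, 16 (12 higher, 4 lower), was 38 after quantile normalization, 32 with a common median (20 higher, 12 lower), 92 with only probe sets above the median level, 175 with a trend and robust prior, 48 with array weights and 108 at an adjusted p of 0.1. It was 8 with the intron mean, 2 with the adipocyte mean and 0 with the fibroblast mean as a covariate, where each covariate also costs a degree of freedom. It ranged from 1 to 15 with 1 animal left out. The labels do not pair animals of equal replicate number. Deviations from the group means correlated at -0.09, 0.08 and -0.07 across probe sets for numbers 1, 2 and 3, with no unequal numbers set beside them. The replicate block gave a count of 1, but a block also costs degrees of freedom, so this cannot decide on pairing. With the block the SE of Tead1 was 0.16 instead of 0.31 (log2 change -0.34, limma adjusted p = 0.575), whereas the SEs of the other members rose. Every gene has 1 probe set, so no other probe set could be tried. Signals within the background range limit Tead2, Tead4 and Vgll4.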
